A study of Mus musculus with 13 samples.

Results

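The guanylate-binding proteins (GBP) and immunity-related GTPases (IRG) are large GTPases that cells make in quantity when interferon-γ reaches them. The genes followed here in the mouse midbrain were Gbp2, Gbp3, Gbp4, Gbp5, Gbp6, Gbp7, Iigp1, Irgm1, Irgm2 and Igtp. These 10 genes were taken by name out of 49315 genes counted in each of 13 RNA-seq libraries. The rule names the genes and sets no threshold on a value, but the choice was made with earlier results of these data known. In mice with intact astrocytic Ripk3, 6 of the 10 genes (Gbp2, Gbp3, Gbp5, Gbp6, Irgm1 and Igtp) were higher 3 days after the neurotoxin MPTP than after Saline, by 2.86-fold to 9.07-fold, where 2.23% of 19360 tested genes were called higher. In mice with Ripk3 deleted by the Aldh1l1-driven Cre, all 10 genes had a positive log2 fold change after MPTP, of 0.73 to 1.78, and 0 passed the same test, which called 0.0% of all tested genes.

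The study asked how RIPK3, a kinase of necroptosis and inflammatory signaling, acts within astrocytes when dopaminergic neurons are injured by MPTP, a toxin taken up by those neurons after its conversion in glia. All 13 mice carried floxed Ripk3 on both alleles (Ripk3fl/fl). They had either no Cre transgene (Ripk3fl/fl Aldh1l1Cre-, hereafter Cre-) or a tamoxifen-inducible Cre under the astrocyte promoter Aldh1l1 (Ripk3fl/fl Aldh1l1Cre+, hereafter Cre+). The mice were adult males on a C57BL/6J background by the study's methods, and the Cre- mice were littermates of the Cre+ mice. Tamoxifen at 60 mg/kg for 5 days, at least a week before the toxin, is recorded here for mice of both genotypes. The study's methods state it for animals with the Cre transgene. MPTP at 20 mg/kg or Saline was then injected once a day for 5 days, and the midbrain was taken 3 days after the last dose. Each mouse gave 1 library, from 3 mice per genotype after Saline, 3 Cre- mice after MPTP and 4 Cre+ mice after MPTP. By the choice of promoter, neurons, microglia, endothelial cells and oligodendrocytes were meant to keep Ripk3 in the Cre+ mice. The study found Ripk3 transcript absent in sorted astrocytes of Cre+ mice and unchanged in their sorted CD11b+ cells. It gave no such check for the other cell types. The whole midbrain was used. In such bulk tissue, a change in the number of cells of a type cannot be told apart from a change in RNA per cell.

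Interferon-γ binds a receptor made of Ifngr1 and Ifngr2, whose kinases Jak1 and Jak2 phosphorylate transcription factors of the STAT family. Dimers of these factors bind gamma-activated sites (GAS) in promoters, and Irf1, itself a product of this step, binds interferon-stimulated response elements (ISRE), which a complex with Stat2 and Irf9 binds downstream of type I interferons. GBP proteins assemble on membranes of vacuoles that hold bacteria or parasites and on bacteria in the cytosol, and they open the way to inflammasome and caspase-11 signaling. The IRG family has effectors such as Iigp1 (Irga6), which coat and break parasite vacuoles, and regulators, Irgm1, Irgm2 and Igtp (Irgm3), which hold the effectors inactive on the cell's own membranes. Their known tissue setting is defense inside infected cells, the brain's glia and vessels included.

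Promoter sequence is shown first, since these genes are known for their interferon elements. RefSeq windows of 300 bases, from 250 before to 50 after the transcription start in GRCm38, were found for 7 of the 10 genes, and for Gbp4, Gbp6 and Iigp1 none is shown. Letters searched were the ISRE core, GAAANNGAAA or TTTCNNTTTC on the other strand, and the GAS letters TTCNNNGAA, which read alike on both strands. All 7 genes held the ISRE core, against 3.99% of 27025 genes with a window in the table. The GAS letters were present in 4 of the 7 (Gbp5, Gbp7, Igtp and Irgm2), against 9.55% of the same 27025 genes. A match describes letters and does not show that a factor binds there. The stretches below are printed 5′ to 3′ on the strand of the gene with both kinds of motif in capitals, and cover positions -110 to -11 from the start, or -250 to -34 for Gbp5, whose elements lie farther away.
Gbp5 (chr3:142496684-142496900, + strand): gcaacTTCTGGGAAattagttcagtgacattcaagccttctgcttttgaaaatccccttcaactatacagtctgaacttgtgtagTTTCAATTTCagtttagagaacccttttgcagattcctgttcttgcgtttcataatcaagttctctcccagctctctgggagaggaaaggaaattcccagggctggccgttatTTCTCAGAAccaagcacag
Gbp7 (chr3:142530226-142530325, + strand): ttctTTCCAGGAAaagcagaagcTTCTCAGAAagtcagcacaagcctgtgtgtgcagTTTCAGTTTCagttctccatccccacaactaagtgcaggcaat
Gbp3 (chr3:142559934-142560033, + strand): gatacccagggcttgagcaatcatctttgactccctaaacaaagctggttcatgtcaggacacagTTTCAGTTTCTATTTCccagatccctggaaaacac
Gbp2 (chr3:142620553-142620652, + strand): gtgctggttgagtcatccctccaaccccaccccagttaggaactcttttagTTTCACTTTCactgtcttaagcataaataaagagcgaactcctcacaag
Irgm1 (chr11:48871431-48871530, - strand): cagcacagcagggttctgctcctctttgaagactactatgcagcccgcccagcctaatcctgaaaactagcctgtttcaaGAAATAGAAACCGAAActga
Igtp (chr11:58199446-58199545, + strand): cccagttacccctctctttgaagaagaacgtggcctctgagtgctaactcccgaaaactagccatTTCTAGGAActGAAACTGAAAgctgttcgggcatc
Irgm2 (chr11:58214867-58214966, + strand): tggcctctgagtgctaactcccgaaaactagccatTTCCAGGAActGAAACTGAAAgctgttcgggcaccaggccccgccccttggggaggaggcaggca

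In the GBP genes of chromosome 3 the ISRE core was read as TTTC repeats, and in the IRG genes of chromosome 11 as GAAA repeats. Gbp2 had a single ISRE core at -59 to -50 and no GAS letters. Gbp3 and Irgm1 each had overlapping ISRE cores (at -45 and -39 in Gbp3 and at -30 and -24 in Irgm1). Gbp7 had GAS letters at -106 and -87 ahead of its ISRE core at -53. The ISRE core of Gbp5, at -165, lay between GAS letters at -245 and -52. Igtp and Irgm2 shared the same arrangement, GAS letters and an ISRE core 11 bases downstream of the start of the GAS. The 100 bases of Irgm2 matched the Igtp window at 98 of 100 positions once shifted by 30 bases, whereas the other 20 pairs among the 7 genes shared 35 to 46 of 100 positions.

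**Figure D1:**
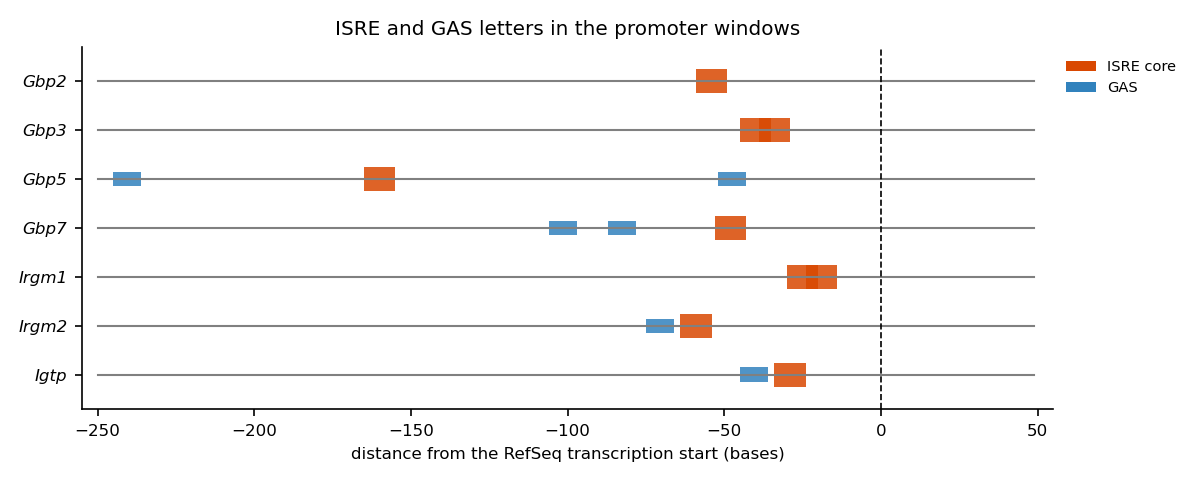
Positions of the ISRE core and GAS letters in the 7 promoter windows, by distance in bases from the RefSeq transcription start (x axis) and gene (y axis). Every gene has an ISRE core before its start, and 4 have GAS letters.

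Library totals ran from 11489150 counts (Cre- MPTP replicate 1) to 29397278 (Cre- MPTP replicate 3), and each of the 10 genes had 24 to 1467 counts in every library. Ripk3 itself had 4 to 40 counts in the 6 Cre- libraries and 4 to 19 in the 7 Cre+ libraries, so that in whole midbrain its counts overlapped between genotypes and do not check the deletion in astrocytes. Levels are given in CPM, a gene's counts scaled to a common library total with TMM factors. In Cre- MPTP replicate 1 this factor was 0.804 and 21101 genes had a count. The other libraries had factors of 1.005 to 1.042 and 25432 to 27186 genes with a count. Summed CPM of 6 muscle genes were 6323 in Cre+ MPTP replicate 4 and 11.7 to 147 in the other 12 libraries. Results are given with and without these libraries where they change. Gbp6 counts are uncertain, because 64.5% of the 100-base windows of its exons recur in other genes, mainly Gm43302 and Gbp10. Igtp and Irgm2 are annotated with 162 shared exonic bases on the same strand, and 11.3% of the Gbp7 exons overlap Gm43802, which had 0 counts. Those 0 counts do not show to which gene reads in the overlap went, if to any.

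In the midbrain of Saline mice the 10 genes were expressed at low to moderate levels. Per kilobase of exon, mean levels in Cre- Saline mice ran, in CPM per kb, from Igtp (2.38) and Gbp3 (2.32) through Gbp2 (1.64), Irgm1 (1.56), Irgm2 (1.33), Gbp7 (1.19), Iigp1 (0.960), Gbp4 (0.671) and Gbp5 (0.572) to Gbp6 (0.395). Between neighbors in this order the 3 libraries overlapped except between Gbp3 and Gbp2 and between Gbp5 and Gbp6. The places of genes that share exonic stretches with others, Gbp6 above all, are uncertain, since those stretches count in the length. In Cre+ Saline mice Igtp (2.14 CPM per kb) and Gbp3 (2.09) were again at the top, with Gbp4 (0.393) at the bottom. After MPTP the highest mean by length was that of Gbp2, at 14.9 CPM per kb in Cre- mice and 4.70 CPM per kb in Cre+ mice. The Cre+ mean rested on replicate 2, at 9.50 CPM per kb. In Cre+ MPTP replicates 1, 3 and 4 Gbp2 (3.26, 2.87 and 3.16) was below Gbp3 (3.76, 5.01 and 3.26). In Cre- MPTP mice Gbp2 did not overlap Igtp, the next gene at 7.86 CPM per kb, and each other neighboring pair in that group overlapped. In Cre+ MPTP mice Gbp2, Igtp (4.01) and Gbp3 (3.95) overlapped in turn, and only Gbp3 and Irgm1 (2.60) were apart.

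Gbp2 and Gbp5 carry a lipid anchor at their C-terminus and are recruited to pathogen vacuoles, and Gbp5 is also known to promote assembly of the NLRP3 inflammasome. Gbp2 (ENSMUSG00000028270, chr3:142620602-142638008, + strand) was at 27.8, 58.0 and 26.6 CPM in the Cre- MPTP mice and at 8.20, 23.9, 7.23 and 7.96 CPM in the Cre+ MPTP mice. Its Saline levels were 4.68, 3.36 and 4.38 CPM in Cre- mice and 4.37, 4.19 and 5.55 CPM in Cre+ mice. Every MPTP library was above every Saline library, and every Cre- MPTP library was above every Cre+ MPTP library, the nearest being replicate 2 of the Cre+ group. With MPTP, Gbp2 was 9.07-fold higher in Cre- mice (log2 fold change 3.18 ± 0.48 SE, adjusted p = 0.00294, edgeR). In Cre+ mice its log2 fold change was 1.32 ± 0.43 (adjusted p = 1.0).

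Gbp5 (ENSMUSG00000105504, chr3:142493978-142522344, + strand) was at 9.31, 23.3 and 9.93 CPM in Cre- MPTP mice and at 5.39, 9.05, 5.36 and 5.87 CPM in Cre+ MPTP mice. After Saline it was at 3.09, 3.16 and 5.14 CPM in Cre- mice and at 2.21, 3.86 and 3.2 CPM in Cre+ mice. As for Gbp2, replicate 2 was the highest library in both MPTP groups, and the MPTP groups overlapped neither each other nor the Saline libraries. Gbp5 was 3.75-fold higher with MPTP in Cre- mice (log2 1.91 ± 0.39, adjusted p = 0.0165). That call was lost without Cre- Saline replicate 1 (1.78, adjusted p = 0.0937) or replicate 2 (1.78, adjusted p = 0.105).

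The other pair of genes in the chromosome 3 cluster differed from each other. Gbp3 (ENSMUSG00000028268, chr3:142560026-142573209, + strand) was at 15.7, 25.2 and 23.9 CPM in Cre- MPTP mice, at 12.3, 12.3, 16.4 and 10.6 CPM in Cre+ MPTP mice, at 6.46, 7.88 and 8.35 CPM in Cre- Saline mice and at 6.85, 5.65 and 7.99 CPM in Cre+ Saline mice. MPTP and Saline libraries did not overlap in either genotype, and 1 Cre+ MPTP library reached into the Cre- MPTP range. Gbp3 was 2.86-fold higher with MPTP in Cre- mice (log2 1.52 ± 0.23, adjusted p = 0.00295), and its value in Cre+ mice was 0.92 ± 0.22 (adjusted p = 0.391). Gbp7 (ENSMUSG00000040253, chr3:142530342-142550149, + strand), tied to assembly of the phagocyte NADPH oxidase, was at 7.36, 17.6 and 11.4 CPM in Cre- MPTP mice and at 11.9, 10.8, 14.2 and 14.3 CPM in Cre+ MPTP mice. After Saline it was at 5.47, 6.32 and 8.28 CPM in Cre- mice and 7.68, 6.63 and 6.70 CPM in Cre+ mice. All 4 Cre+ MPTP libraries lay above every Saline library, while Cre- MPTP replicate 1 lay within the Cre- Saline range. The log2 fold change of Gbp7 with MPTP was the same to 2 decimals in both genotypes, 0.87 ± 0.28 in Cre- mice (adjusted p = 0.149) and 0.87 ± 0.26 in Cre+ mice (adjusted p = 0.822). Without Cre- MPTP replicate 1, Gbp7 passed the test in Cre- mice.

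On chromosome 5, Gbp6 and Gbp4 had unlike profiles. Gbp6 (ENSMUSG00000104713, chr5:105270702-105293698, - strand) was at 9.53, 17.8 and 12.9 CPM in Cre- MPTP mice, at 4.28, 7.48, 5.50 and 5.22 CPM in Cre+ MPTP mice, at 2.30, 2.46 and 2.30 CPM in Cre- Saline mice and at 4.69, 2.24 and 3.23 CPM in Cre+ Saline mice. The Cre- MPTP libraries stood apart from all other libraries, and 1 Cre+ MPTP library lay below the highest Cre+ Saline library. Gbp6 was 5.72-fold higher with MPTP in Cre- mice (log2 2.52 ± 0.32, adjusted p = 0.00139), and its value in Cre+ mice, 0.73 ± 0.29 (adjusted p = 1.0), was the lowest of the 10. Gbp4 (ENSMUSG00000079363, chr5:105115767-105139586, - strand) was at 2.60, 19.6 and 5.28 CPM in Cre- MPTP mice, a span that ran from the lowest Saline values to above every other library. It was at 12.1, 7.82, 10.3 and 10.1 CPM in Cre+ MPTP mice, at 2.93, 5.03 and 7.11 CPM in Cre- Saline mice and at 3.19, 2.52 and 3.12 CPM in Cre+ Saline mice. All Cre+ MPTP values were thus above all Saline values, and only 1 of 3 Cre- MPTP values was. The log2 fold change of Gbp4 with MPTP was 1.78 ± 0.54 in Cre+ mice (adjusted p = 0.878), the highest of the 10 genes there, and 0.89 ± 0.55 in Cre- mice (adjusted p = 0.448), where it turned to -0.31 without Cre- MPTP replicate 2.

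Of the IRG regulators, Irgm1, which also acts at mitochondria and in autophagy, and Igtp both rose with MPTP in Cre- mice. Irgm1 (ENSMUSG00000046879, chr11:48861968-48871683, - strand) was at 14, 31.1 and 33.8 CPM in Cre- MPTP mice and at 13.7, 16.3, 17.1 and 13.3 CPM in Cre+ MPTP mice. Its Saline values were the tightest of the 10 genes relative to their level, at 9.0, 9.01 and 9.23 CPM in Cre- mice and 8.59, 8.58 and 9.21 CPM in Cre+ mice, and every MPTP library was above them. Irgm1 was 2.91-fold higher with MPTP in Cre- mice (log2 1.54 ± 0.26, adjusted p = 0.00577), against 0.78 ± 0.25 in Cre+ mice (adjusted p = 0.932). Igtp (ENSMUSG00000078853, chr11:58199556-58207591, + strand) was at 11.2, 19.7 and 16.8 CPM in Cre- MPTP mice, at 7.75, 9.55, 8.78 and 6.32 CPM in Cre+ MPTP mice, at 4.72, 4.49 and 5.25 CPM in Cre- Saline mice and at 4.57, 3.21 and 5.21 CPM in Cre+ Saline mice. The MPTP groups were apart from each other and from the Saline groups. Igtp was 3.31-fold higher with MPTP in Cre- mice (log2 1.73 ± 0.25, adjusted p = 0.00258), and its value in Cre+ mice was 0.90 ± 0.24 (adjusted p = 0.591).

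Irgm2 (ENSMUSG00000069874, chr11:58199618-58222782, + strand), whose promoter stretch is nearly that of Igtp, had another profile across the MPTP groups when all libraries were kept. It was at 3.47, 12.3 and 9.70 CPM in Cre- MPTP mice and at 8.72, 6.37, 10.4 and 8.42 CPM in Cre+ MPTP mice. After Saline it was at 4.16, 4.37 and 6.20 CPM in Cre- mice and at 3.31, 3.09 and 5.29 CPM in Cre+ mice. Cre- MPTP replicate 1 was below all 3 of its Saline controls, as it was for Gbp4, while each of the Cre+ MPTP libraries was above all Saline libraries. The log2 fold change with MPTP was 0.81 ± 0.38 in Cre- mice (adjusted p = 0.344) and 1.12 ± 0.37 in Cre+ mice (adjusted p = 1.0). Without Cre- MPTP replicate 1, the library of lowest depth, Irgm2 passed the test in Cre- mice, as Igtp did with all libraries. Iigp1 (ENSMUSG00000054072, chr18:60376029-60392627, + strand), the effector among the 10, was at 5.52, 14.4 and 8.84 CPM in Cre- MPTP mice and at 4.21, 5.36, 4.79 and 10.8 CPM in Cre+ MPTP mice, where replicate 4 was the highest. Its Saline values were 2.42, 2.89 and 3.68 CPM in Cre- mice and 3.19, 1.42 and 2.40 CPM in Cre+ mice. MPTP libraries were above Saline libraries in both genotypes and overlapped between genotypes. The log2 fold change of Iigp1 was 1.68 ± 0.44 in Cre- mice (adjusted p = 0.0621) and 1.43 ± 0.42 in Cre+ mice (adjusted p = 0.763). It passed the test in Cre- mice without Cre- MPTP replicate 1 (1.95, adjusted p = 0.00735) or Cre+ MPTP replicate 4 (1.68, adjusted p = 0.0312). The Iigp1 value in Cre+ mice rests in part on replicate 4, the library with high muscle counts. The gap from that library to the next was 0.825 of the range of the Cre+ MPTP group.

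**Figure D2:**
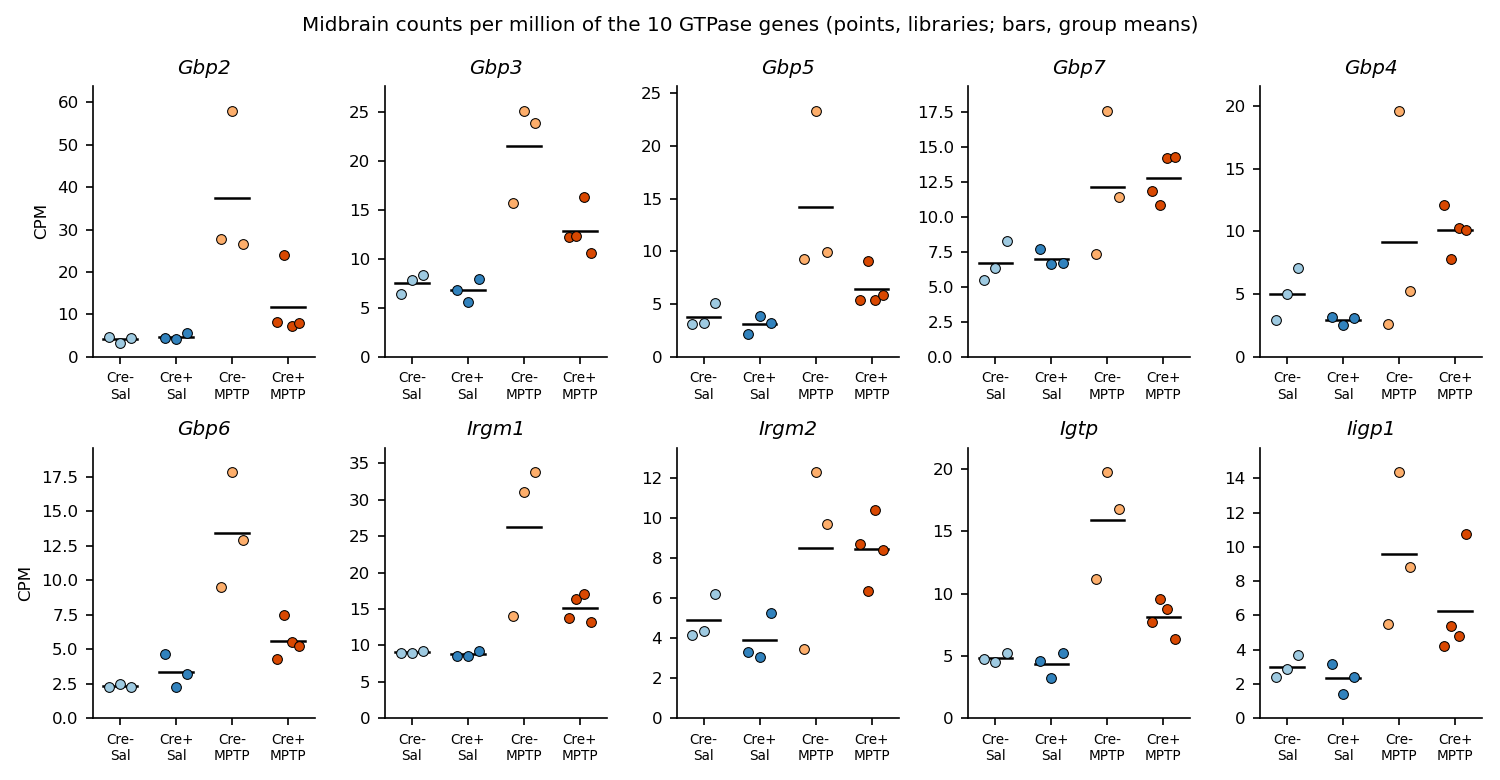
CPM of each of the 10 genes (y axis, a scale for each gene starting at 0) in the 4 groups (x axis), with a point for each library and a bar at the group mean. Gbp2, Gbp5, Gbp6 and Igtp have all 4 Cre+ MPTP points below all 3 Cre- MPTP points, and Gbp3, Gbp4, Gbp7, Iigp1, Irgm1 and Irgm2 do not.

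The first comparison asked what MPTP did with astrocytic Ripk3 intact. In Cre- mice 6 of the 10 genes were called higher at an adjusted p under 0.05 and 0 lower, where 2.23% of 19360 tested genes were called higher. For 7 of the 10 the CPM of the MPTP and Saline libraries did not overlap, with MPTP higher (all but Gbp4, Gbp7 and Irgm2), and for 0 with MPTP lower, against 7.11% and 8.03% of all tested genes. The median log2 fold change of the 10 was 1.61, and that of all tested genes was 0.03. Gbp2, Gbp3, Gbp6, Irgm1 and Igtp passed without any 1 of the 13 libraries. Without Cre- MPTP replicate 1, the library of lowest depth, 9 of the 10 passed, Gbp7, Iigp1 and Irgm2 being added. Over all genes 992 of 19311 were called higher in that fit, against 431 of 19360 in the main fit. DESeq2 called 8 (with Gbp7 and Iigp1), where it called 757 of 18802 genes higher, and limma voom 9 (with Irgm2 as well), where it called 1373 of 19360. Fitted to these 6 libraries alone, the edgeR test called 2 (Gbp2 and Gbp6), and 105 of 18332 genes.

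The second comparison asked the same of mice lacking Ripk3 in Aldh1l1-expressing cells. In Cre+ mice edgeR called 0 of the 10 genes and 0.0% of all tested genes in either direction. An unadjusted p under 0.05 was reached by all 10, and by 672 of 19360 tested genes. DESeq2 called 2 (Gbp3 and Igtp) and limma voom 6 (Gbp3, Gbp4, Gbp7, Irgm1, Irgm2 and Igtp). Over all genes DESeq2 called 75 of 18802 higher there, and limma voom 183 of 19360. For 9 of the 10, Gbp6 being the exception, all 4 MPTP libraries lay above all 3 Saline libraries, and for 0 all lay below, against 5.03% and 4.65% of all tested genes. The median log2 fold change was 0.98, and that of all tested genes was 0.00. Without Cre- MPTP replicate 1, which is not in this contrast but enters the shared estimate of spread, edgeR called 2 (Gbp3 and Irgm1), and 31 of 19311 genes higher. Averaged over both genotypes, the MPTP contrast called 8 of the 10 higher, against 2.02% of tested genes, with log2 values of 2.25 ± 0.32 for Gbp2 (adjusted p = 0.00251), 1.62 ± 0.21 for Gbp6 and 0.87 ± 0.19 for Gbp7 (adjusted p = 0.0276). Gbp4 (1.33 ± 0.39, adjusted p = 0.117) and Irgm2 (0.97 ± 0.27, adjusted p = 0.0904) were the exceptions. Gbp7 kept this call in 5 of 13 fits that left out 1 library, and Iigp1 (1.56 ± 0.30, adjusted p = 0.014) in 11 of 13, losing it without Cre- Saline replicate 1 or 2.

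The third comparison set Cre+ against Cre- mice after MPTP. It shares the Cre- MPTP libraries with the first and the Cre+ MPTP libraries with the second, so that its values are not independent of theirs. An unadjusted p under 0.05 was reached by 6 of the 10, and by 3684 of 19360 tested genes. Gbp6 alone, whose counts are uncertain as given above, was called lower in Cre+ mice (log2 -1.26 ± 0.28, adjusted p = 0.043), where 1.03% of tested genes were called lower. That call was kept without Cre- MPTP replicate 1, Cre+ MPTP replicate 2 or Cre+ Saline replicate 1 or 2, and lost without any of the other 9 libraries (adjusted p up to 0.151). For 4 of the 10 (Gbp2, Gbp5, Gbp6 and Igtp) the Cre+ MPTP libraries lay wholly below the Cre- MPTP libraries, and for 0 wholly above, against 5.09% and 6.24% of tested genes. Igtp (-0.98 ± 0.23, adjusted p = 0.0576), Gbp2 (-1.67 ± 0.41, adjusted p = 0.073), Gbp3 (-0.75 ± 0.21, adjusted p = 0.122), Irgm1 (-0.81 ± 0.24, adjusted p = 0.141) and Gbp5 (-1.15 ± 0.35, adjusted p = 0.15) did not pass. Without Cre- MPTP replicate 1 these 5 and Gbp6 all passed, where 372 of 19311 genes were called lower, against 199 of 19360 in the main fit. Gbp2 also passed without Cre- MPTP replicate 3 (-1.86, adjusted p = 0.0487) or Cre+ MPTP replicate 2 (-2.26, adjusted p = 0.00322). Those fits called 447 of 19182 and 222 of 19268 genes lower. DESeq2 called 6 lower, where it called 565 of 18802 genes lower, and limma voom 7, where it called 736 of 19360. Fitted to these 2 groups alone, edgeR called 0 of the 10 and 0 of 18480 genes in either direction.

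The remaining genes did not pass between the MPTP groups, and their intervals were wide. The log2 difference of Cre+ from Cre- MPTP mice was 0.07 for Gbp7 (-0.44 to 0.58, 2 SE on either side), -0.02 for Irgm2 (-0.73 to 0.69) and 0.12 for Gbp4 (-0.90 to 1.14). For Iigp1 it was -0.62 (-1.40 to 0.17), which was called lower with limma voom and without both Cre- MPTP replicate 1 and Cre+ MPTP replicate 4. The median over the 10 genes was -0.78, and over all tested genes 0.03. Gbp4 was called higher in Cre+ mice without Cre- MPTP replicate 2 (1.31, adjusted p = 0.0499), and its value was -0.30 without Cre- MPTP replicate 1. The fit without Cre- MPTP replicate 2 called 245 of 19205 genes higher.

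Genotype alone was compared in Saline mice. Of the 10 genes edgeR called 0, with 0 at an unadjusted p under 0.05, 0 by DESeq2, 0 by limma voom and 0 with groups that did not overlap, where 5.91% of tested genes lay wholly higher and 5.71% wholly lower. Over all 19360 tested genes edgeR called 0.0% in either direction, and 176 had an unadjusted p under 0.05. Log2 differences of Cre+ from Cre- Saline mice ran from -0.77 (Gbp4) to 0.52 (Gbp6), with a median of -0.15. The interaction, which asks whether the MPTP difference itself differed between genotypes, called 0 of the 10 with edgeR, where 0.0103% of tested genes were called higher and 0.0% lower. An unadjusted p under 0.05 was reached by 3 of the 10, and by 1116 of 19360 tested genes. DESeq2 called Gbp6 (with 140 of 18802 genes called lower), and limma voom called Gbp2, Gbp6, Irgm1 and Igtp (with 398 of 19360). The largest interaction values were -1.86 ± 0.61 for Gbp2 (adjusted p = 0.538) and -1.79 ± 0.42 for Gbp6 (adjusted p = 0.205), and on the other side 0.89 for Gbp4. The test therefore did not show that the MPTP difference of any of the 10 genes differed between genotypes.

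**Figure D3:**
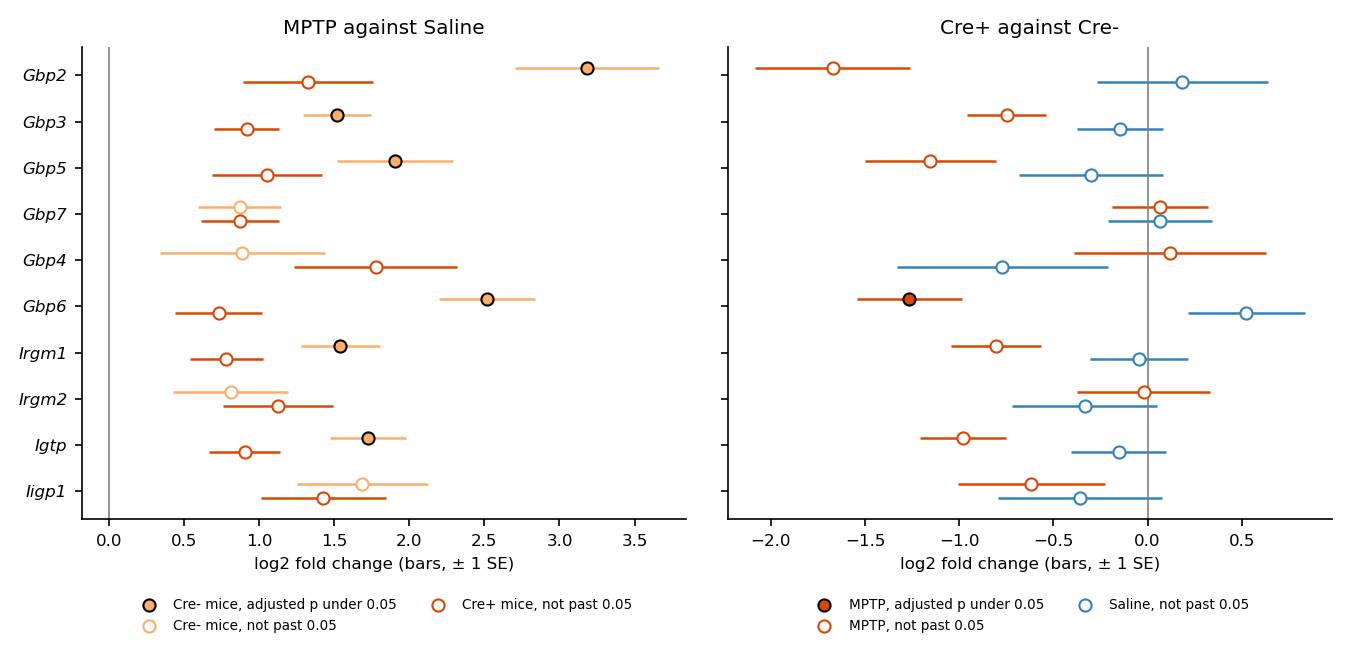
Log2 fold changes of the 10 genes (x axis, with bars of 1 SE on either side; genes on the y axis) for MPTP against Saline in each genotype and for Cre+ against Cre- mice in each treatment. Filled points passed an adjusted p under 0.05, which 6 genes did for MPTP in Cre- mice and Gbp6 did between genotypes after MPTP.

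Summed over the 10 genes, CPM were 106, 239 and 159 in Cre- MPTP mice and 88.5, 109, 100.01 and 92.9 in Cre+ MPTP mice. After Saline the sum was 51.4 ± 7.64 CPM (SD, n = 3) without Cre and 47.3 ± 5.38 CPM (SD, n = 3) with it. The Cre+ MPTP libraries were thus closer to each other than the Cre- MPTP libraries, and replicate 1 of the Cre- MPTP group lay within the Cre+ MPTP range. The make-up of this sum differed between the groups. Gbp2 gave 22.4 ± 4.99% (SD, n = 3) of it in Cre- MPTP mice, 11.7 ± 6.84% (SD, n = 4) in Cre+ MPTP mice, 8.17 ± 1.90% in Cre- Saline mice and 9.94 ± 0.872% in Cre+ Saline mice. In Cre+ MPTP mice that mean rested on replicate 2, at 21.9%, beside a lowest value of 7.23%. Gbp7 gave 7.15 ± 0.224% in Cre- MPTP mice and 13.2 ± 2.35% in Cre+ MPTP mice, beside 12.9% and 14.9% in Cre- and Cre+ Saline mice. The 6 GBP genes together gave 64.0 ± 6.46% in Cre- MPTP and 60.9 ± 3.28% in Cre+ MPTP mice, a difference within the spread between replicates.

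**Figure D4:**
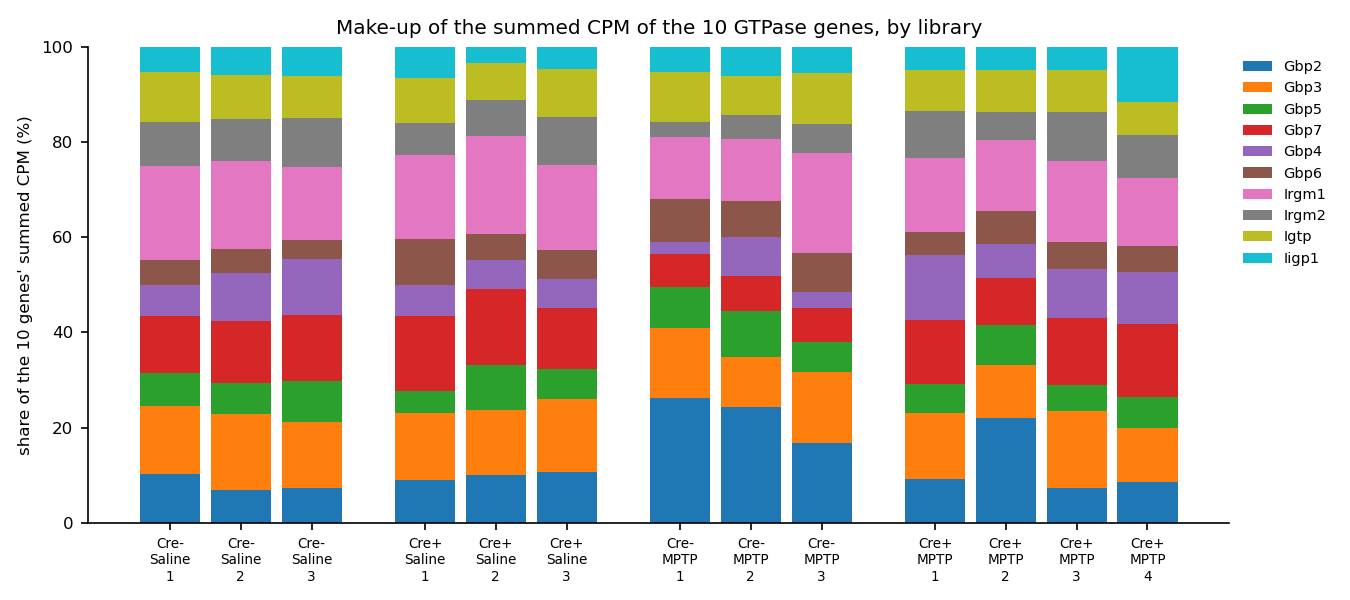
Share in percent of each of the 10 genes in their summed CPM (y axis) for each of the 13 libraries (x axis). The Gbp2 segment is widest in the 3 Cre- MPTP libraries and in Cre+ MPTP replicate 2, and the Gbp7 segment is narrowest in the Cre- MPTP libraries.

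Across the 13 libraries the log2 CPM of the 10 genes moved together to unequal degrees. Pearson's r between pairs ran from 0.421 (Gbp2 with Gbp4) to 0.978 (Gbp3 with Igtp), with a median of 0.828 over 45 pairs. With group means removed, r ran from 0.105 to 0.927 with a median of 0.540. These points share the 4 groups and the depth of each library, and they are given as a description. Among 15985 other genes with a mean of at least 1 CPM, those most like the mean profile of the 10 were Ifitm3 (r = 0.971), Nlrc5 (0.953), Apobec3 (0.946), Oasl2 (0.945) and Casp4 (0.939), and none of these 5 was among the closest 5 once group means were removed.

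Of 18 other genes of the GBP and IRG families, 14 had enough counts to be tested. In Cre- mice MPTP raised Gbp10 (log2 2.70 ± 0.55, adjusted p = 0.0176) and F830016B08Rik (3.21 ± 0.71, adjusted p = 0.0266) and lowered Gbp11 (-1.14 ± 0.25, adjusted p = 0.0276). Gbp11 was at 1.08, 0.870 and 1.02 CPM in Cre- MPTP mice and at 2.44, 2.46, 2.17 and 2.32 CPM in Cre+ MPTP mice, beside 1.74 to 3.12 CPM in the 6 Saline libraries. Of the 14, it was the 1 that passed the test as lower with MPTP, and the 1 that passed as higher in Cre+ than in Cre- MPTP mice (1.25 ± 0.24, adjusted p = 0.0271). Gbp10, whose exons share windows with Gbp6, was at 2.06, 1.98 and 2.21 CPM in Cre- MPTP mice and at 0.443, 0.223, 1.2 and 0.686 CPM in Cre+ MPTP mice. These did not overlap, and the difference did not pass the test (-1.69 ± 0.48, adjusted p = 0.13). Averaged over genotypes, MPTP raised 5 of the 14, namely Gbp10, F830016B08Rik, Gm4951 (1.46), Tgtp1 (1.64) and Tgtp2 (1.70), the last pair being near-identical copies whose reads could be divided between them. In Cre+ mice alone 0 of the 14 passed, with a median of 1.11, where edgeR called 0.0% of all tested genes.

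The upstream chain was read from lists of known genes. Among all tested genes, 2.23% were called higher and 0.956% lower with MPTP in Cre- mice, and 0.0% either way in Cre+ mice. Of 6 interferon genes looked at, none had enough counts to be tested. Ifng had 0 counts in all 13 libraries, where 3 counts stood for 0.102 to 0.261 CPM. Ifnb1, Ifna4 and Ifnl2 also had 0 counts in all 13, Ifna2 had at most 4 and Ifnl3 at most 1 in a library. For the receptor, the MPTP log2 fold change in Cre- mice was 0.29 for Ifngr1 (adjusted p = 0.435) and 0.50 for Ifngr2 (adjusted p = 0.435). Those of the kinases were -0.08 for Jak1 and 0.13 for Jak2.

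In Cre- mice 3 of 11 genes listed for the receptor and JAK-STAT chain rose with MPTP and 0 fell. Stat3, the factor of IL-6 family cytokines, rose by 1.17 ± 0.16 on the log2 scale (adjusted p = 0.00185) and Irf9, the DNA-binding partner of Stat2, by 1.25 ± 0.18 (adjusted p = 0.00253). Stat2 rose by 0.63 ± 0.14 (adjusted p = 0.0303). Irf1 had 0.74 ± 0.20 (adjusted p = 0.0803) and passed only when averaged over genotypes (0.59, adjusted p = 0.0406). Values for Irf8 (1.11, adjusted p = 0.108), Irf2 (-0.29) and Ciita (0.09), the regulator of MHC class II, did not pass. The median log2 value over the list was 0.50 in Cre- mice, against 0.25 in Cre+ mice, where 0 of the list and 0.0% of all tested genes passed. Between the MPTP groups Stat3 was lower in Cre+ mice (-0.86 ± 0.14, adjusted p = 0.0147), and Stat2 had -0.39 ± 0.13 (adjusted p = 0.186).

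Of 8 inhibitors of this signaling, 3 rose with MPTP in Cre- mice and 0 fell, with a median of 0.93. Socs3, induced by Stat3, rose by 4.64 ± 0.72 (adjusted p = 0.00338), the phosphatase Ptpn6 by 1.45 ± 0.19 (adjusted p = 0.00154) and Ptpn11 by 0.53 ± 0.13 (adjusted p = 0.0493). Socs1, the inhibitor most tied to interferon-γ, had 1.45 ± 0.67 (adjusted p = 0.333). Socs3 was lower in Cre+ than in Cre- MPTP mice (-3.19 ± 0.60, adjusted p = 0.0231). Usp18, which restrains the type I receptor, passed when averaged over genotypes (1.28, adjusted p = 0.00991).

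**Figure D5:**
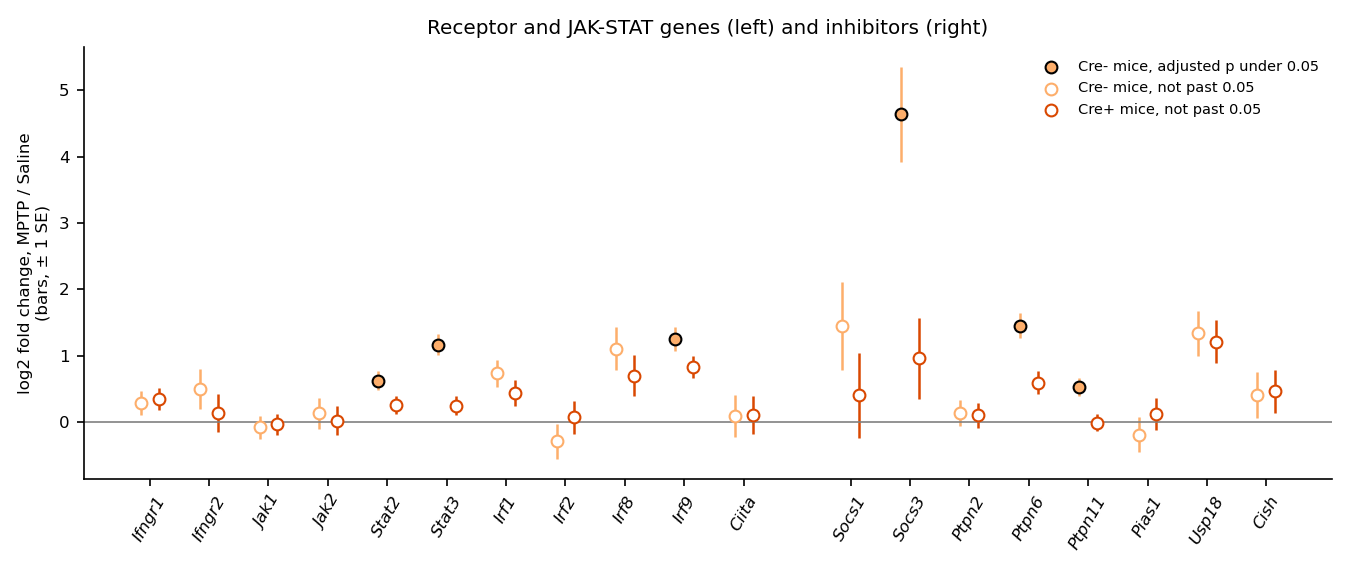
Log2 fold change of MPTP against Saline (y axis, bars of 1 SE on either side) for the receptor and JAK-STAT genes and the inhibitors (x axis) in each genotype, with filled points for an adjusted p under 0.05. Socs3 in Cre- mice stands highest, at 4.64, and no Cre+ point is filled.

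Other targets of interferon-γ were read in the same way. In Cre- mice 8 of 17 tested targets rose with MPTP and 0 fell, with a median of 1.23. These were the chemokines Cxcl9 (4.78) and Cxcl10 (3.99), the immunoproteasome subunit Psmb8 (3.54), the MHC class I regulator Nlrc5 (2.88), Slfn2 (2.64), the peptide transporter genes Tap1 (2.10) and Tap2 (1.47), and Cd274 (1.23), which encodes PD-L1. Psmb8 was lower in Cre+ than in Cre- MPTP mice (-2.69 ± 0.57, adjusted p = 0.0396), and the other 16 did not pass there. Averaged over genotypes 9 rose, with B2m and Psmb9 added and Tap2 left out.

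Genes better known as type I interferon targets also moved. In Cre- mice 9 of 20 rose with MPTP and 0 fell, led by the nucleic acid sensor Zbp1 (4.01 ± 0.41, adjusted p = 0.000628), Bst2 (3.23) and Irf7 (3.13), with Ifi44 (2.68), Oasl2 (2.41), Isg15 (1.83), Rtp4 (1.66), Oas1a (1.48) and Cmpk2 (0.63). All 20 had a positive value in each genotype, with medians of 1.49 in Cre- and 1.27 in Cre+ mice. In Cre+ mice 0 of the 20 passed, where edgeR called 0.0% of all tested genes. Zbp1 came nearest there (2.82 ± 0.39, adjusted p = 0.0598). Bst2, which tethers budding viruses, was lower in Cre+ than in Cre- MPTP mice (-2.06 ± 0.46, adjusted p = 0.0454). Averaged over genotypes 13 rose, with Rsad2, Ifi27l2a, Mx2, Ifit1 and Ifit3 among them. These lists and the 10 GTPase genes are all known to answer to both interferon classes in part, and the counts do not tell the classes apart.

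Among 22 partners of the GTPases, in ATG8 conjugation, protein prenylation and pyroptosis, 1 rose with MPTP in Cre- mice and 0 fell. It was Casp4, the cytosolic sensor of lipopolysaccharide known as caspase-11 in mice (log2 2.99 ± 0.63, adjusted p = 0.0208). The median of the list was 0.20 in Cre- mice, against -0.04 in Cre+ mice. The 5 genes of the ATG8 conjugation enzymes, which help place IRG and GBP proteins on membranes, had values from -0.26 (Atg7, adjusted p = 0.322) to 0.75 (Atg3, adjusted p = 0.402). In each of these lists 0 genes passed in Saline mice between genotypes.

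Markers of the cells that could carry these transcripts were summed by library. Of 7 neutrophil markers, 4 of 5 tested (S100a8, S100a9, Mmp8 and Retnlg) rose with MPTP in Cre- mice and were lower in Cre+ than in Cre- MPTP mice. Their sum over 7 genes was 17.1, 13.4 and 69.0 CPM in the 3 Cre- MPTP libraries, 5.85 to 8.15 in Cre+ MPTP, 3.71 to 4.71 in Cre- Saline and 3.50 to 6.39 in Cre+ Saline, and Ly6g was at 3 counts or fewer in every library. The neutrophil sum was highest in Cre- MPTP replicate 3, and the sum of the 10 GTPase genes in replicate 2. Irgm1 alone of the 10 was highest in replicate 3, and what neutrophils contributed was not tested. The 10 T and NK cell markers, from cells that are the usual source of interferon-γ, summed to 0.217 to 1.23 CPM in Cre- MPTP, 0.798 to 1.90 in Cre+ MPTP, 1.06 to 1.72 in Cre- Saline and 0.913 to 1.38 in Cre+ Saline. Of these, Ncr1 and Nkg7 were at 3 counts or fewer in every library, and 0 of 2 tested passed.

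Astrocyte markers summed to 5302 to 5893 CPM with MPTP in Cre- mice and to 3931 to 4775 CPM in the other 10, and all 8 were tested. The median log2 value of the 8 with MPTP in Cre- mice was -0.27, with 3 positive and 5 negative, S100b (-0.74, adjusted p = 0.0967) and Gja1 (-0.60, adjusted p = 0.346) the lowest. Gfap (log2 2.60 ± 0.35, adjusted p = 0.00202) and Aldh1l1 (0.65 ± 0.15, adjusted p = 0.0403) rose with MPTP in Cre- mice, and Gfap was lower in Cre+ than in Cre- MPTP mice (-2.20 ± 0.32, adjusted p = 0.00827). Microglia markers summed to 199 to 359 CPM in Cre- MPTP, 258 to 374 in Cre+ MPTP, 257 to 309 in Cre- Saline and 255 to 272 in Cre+ Saline, with P2ry12 and Fcrls lower with MPTP in Cre- mice. Endothelial markers summed to 301 to 451 CPM in Cre- MPTP, 296 to 392 in Cre+ MPTP, 289 to 318 in Cre- Saline and 246 to 290 in Cre+ Saline, with Tek lower and 0 of 8 higher in Cre- mice. Markers of monocytes and border macrophages summed to 8.99 to 30.6 CPM over all libraries, with Ly6c2 higher (2.66 ± 0.47, adjusted p = 0.00704) and Mrc1 lower with MPTP in Cre- mice. Markers of oligodendrocytes summed to 9159 to 11770 CPM in Cre- MPTP and to 11092 to 17138 in the other libraries, with Cnp and Mog lower. Dopaminergic neuron markers (350 to 605 CPM) and general neuron markers (2949 to 4923 CPM) had 0 genes called in any comparison. Both lowest sums were in Cre- MPTP replicate 1, and the other libraries had at least 461 and 4006 CPM. Higher in Cre+ than in Cre- MPTP mice were P2ry12 (2.12 ± 0.19, adjusted p = 0.00142) and Fcrls (2.72) of the microglia markers, Tek (1.88) and Kdr (1.28) of the endothelial markers, and Mrc1 (1.70) of the macrophage markers, and P2ry12 also passed the interaction (2.26 ± 0.26, adjusted p = 0.024). The part of these cell types in the results for the 10 GTPase genes was not tested.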

How the data were processed

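Total RNA of the midbrain was sequenced by the study with a stranded total RNA kit, 1 library per mouse. The deposited values are whole-number read counts per gene, without normalization, which the authors made with Trimmomatic 0.36, STAR 2.5.2b and featureCounts of Subread 1.5.2 on GRCm38, per the submitters' processing notes. The strand setting of the counting was not given in the sources used here. Symbols were taken from GENCODE M21 for 49056 genes and were not found for 259. Positions are those of the deposited count tables (GRCm38).

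Genes that reached 10 counts in 3 or more libraries were kept (19360 of 49315, all 10 GTPase genes among them). Library totals of 11489150 to 29397278 limit the precision for low genes. Counts were tested in edgeR 4.0.16 (R 4.3.3) with TMM factors, 1 term per group over all 13 libraries and quasi-likelihood tests. P-values were adjusted by Benjamini-Hochberg over the 19360 genes in each comparison, and a gene was called at an adjusted p under 0.05. CPM used TMM-scaled totals, and CPM per kb the exonic length in the count tables. SE is the log2 fold change divided by the square root of F. Genes at 3 counts or fewer were taken as at the floor, which covers counting error only. The alternatives were DESeq2 1.42.0, limma 3.58.1 voom with sample weights, other normalization, no filter, fewer samples and a replicate block. The fit was tested on simulated data.

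The 10 genes, the lists and the libraries doubted were chosen with earlier results of these data known. The genes named were the 10, every gene of a list that passed, the ligands, receptors and transcription factors, and the 5 genes most like the mean profile. A gene of the signaling list is not reported here. Promoter sequences came from RefSeq windows (GRCm38.p6) matched by symbol.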

Additional observations from a re-analysis of the deposited data

Results flagged for a closer look

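In the Cre+ MPTP group, 1 library stood far from the other 3 for 2 of the 10 genes. Gbp2 was at 23.9 CPM in Cre+ MPTP replicate 2, and the gap to the next library was 0.942 of the group's range. Gbp5 was at 9.05 CPM in the same library, with a gap of 0.864 of the range. Both passed Dixon's 95% critical value for 4 samples, and chance puts about 1 in 20 such groups past it. Without this library the log2 difference of Cre+ from Cre- MPTP mice was -2.26 for Gbp2 (adjusted p = 0.00322, edgeR). Cre+ MPTP replicate 2 had the lowest total of its group, 17713289 counts.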

How the results depend on the processing

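For MPTP in Cre- mice the count of GTPase genes called higher (6) was 8 with DESeq2, 9 with limma voom, 7 without a filter, 9 without both Cre- MPTP replicate 1 and Cre+ MPTP replicate 4, 2 with edgeR on the 2 groups alone and 5 to 9 without 1 library. Over all genes 431 were called higher, 414 without a filter, 1059 without both libraries and 213 to 992 without 1. In Cre+ mice the count (0) was 2 with DESeq2, 6 with limma voom, 1 on the 2 groups alone, 3 without both libraries, and 0 to 2 without 1 library. Over all genes 0 were called higher, 14 on the 2 groups alone, 36 without both libraries and 0 to 31 without 1. Between genotypes after MPTP the count called lower (1) was 6 with DESeq2, 7 with limma voom, 0 on the 2 groups alone, 2 with DESeq2 size factors, 2 without a filter, 0 with a replicate block, 6 without both libraries and 0 to 6 without 1, and the count called higher (0) was 0 to 1 without 1. Over all genes 199 were called lower, 211 with size factors, 228 without a filter and 0 with the block. Without both libraries 346 were lower, and without 1 library 21 to 1581 were lower and 18 to 245 higher. For the interaction the count called lower (0) was 1 with DESeq2, 4 with limma voom, 2 without both libraries and 0 to 2 without 1. Over all genes 0 were called lower there, 119 without both libraries and 0 to 103 without 1. The average over genotypes gave 7 with the replicate block and 6 to 10 otherwise, beside 262 and 231 to 1411 called higher over all genes. The likeness ranking shared 0 of 5 genes after group means were removed. The cause of these changes was not tested.

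Some directions turned, none of them of a value called in the main fit. Gbp4 between genotypes after MPTP, which was called higher without Cre- MPTP replicate 2, was among those that turned. Without 1 library, Gbp4 ran from -0.31 to 1.30 for MPTP in Cre- mice and from -0.30 to 1.31 between genotypes after MPTP (-0.30 without both libraries). Gbp7 between genotypes after MPTP was -0.082 with limma voom, -0.24 without both and -0.18 to 0.43 without 1, and in Saline -0.061 to 0.25 without 1. The Gbp7 interaction was -0.020 with DESeq2, -0.17 with limma voom, -0.014 with size factors, -0.048 with the replicate block, -0.31 without both and -0.24 to 0.37 without 1. Irgm2 between genotypes after MPTP was 0.043 with the replicate block and -0.38 to 0.33 without 1, and its interaction was -0.052 with limma voom, -0.038 without both and -0.040 to 0.66 without 1. The Iigp1 interaction was -0.93 without both and -0.65 to 0.15 without 1, and Igtp in Saline reached 0.021 without Cre+ Saline replicate 2. Every other log2 value of the 10 genes kept its direction. Under settings other than leaving out 1 library, 330 of these values kept their side of the threshold, 52 came to pass it and 7 no longer did, and without 1 library 721, 19 and 21.

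Replicate numbers are the mouse numbers in the sample titles, which do not say whether mice of equal number were handled together. Deviations of same-numbered libraries correlated over 0.1 in 3 of 18 pairs (-0.18 to 0.18), and 5 of 13 libraries correlated best with their own number. So few libraries cannot settle whether the numbers mark pairs. With 3 or 4 mice a group and totals down to 11489150, the intervals for Irgm2, Gbp7, Gbp4 and Iigp1 between the MPTP groups spanned 0, and the 6 interferon genes looked at had too few counts to test.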
